A study of Rattus norvegicus with 2 samples.

Results

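The metzincin proteases of the ADAM, ADAMTS and MMP families and their TIMP inhibitors were described in rat oligodendrocyte precursor cells (OPCs) electroporated with siHsc70, an siRNA against the chaperone Hsc70, or with siSCR, a scrambled siRNA. Members were all rows of the expression table whose gene symbol begins with Adam plus a digit, Adamts plus a digit or l, Mmp plus a digit or Timp plus a digit, leaving out names of pseudogenes. This gave 60 of 18049 genes: 16 ADAM, 23 ADAMTS or ADAMTS-like, 17 MMP and 4 TIMP genes. Of these, 43 were measured, meaning that they reached a mean of at least 1 CPM (counts scaled to a common library total, after TMM scaling) over both libraries, as did 13518 of all genes.

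The cells of both groups were wild type, came from the cortices of rat pups by immunopanning and had 1 of these siRNAs each. PDGF-AA, bFGF and NT3 were then taken away and 60 nM T3, a thyroid hormone, was present, and the design text places them at day 2 of T3, as immature oligodendrocytes. Each group is 1 library, with a total estimated count of 18130817 in siHsc70 and 19085626 in siSCR. The siRNA is shown because it sets the groups apart. Its sequence is copied from the labels, 5′ to 3′.
siHsc70: tcatgactgtcctcatcaa

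ADAM proteins are membrane-anchored enzymes that cut the outer part off other membrane proteins, a step called shedding, and some have lost the enzyme site and act as adhesion receptors. ADAMTS enzymes are secreted and cut matrix proteoglycans and procollagens, while MMPs cut collagens and many other matrix and surface proteins. TIMPs bind and block these enzymes. In the brain such enzymes remodel the lectican-rich matrix around OPCs, and shedding acts on Notch and neuregulin signals that reach the oligodendrocyte lineage.

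The targeted gene Hspa8, which encodes HSC70, was at 507 CPM in siHsc70 and 1399 CPM in siSCR. All 14 oligodendrocyte lineage markers searched were measured, and their summed level was 3461 CPM in siHsc70 and 10891 CPM in siSCR, with 11 of the 14 at least 2-fold lower. Of other cell types, 10 of 10 astrocyte and 10 of 10 neuronal markers were measured, against 6 of 10 fibroblast or mural, 2 of 10 microglial and 4 of 8 endothelial markers. The astrocyte list summed to 3534 CPM in siHsc70 and 4007 CPM in siSCR, and the neuronal list to 280.1 CPM in siHsc70 and 384 CPM in siSCR. In bulk RNA, fewer cells of a type and less RNA per cell cannot be told apart.

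With 1 library per group there was no test between the groups. Each difference is the log2(CPM + 1) of siHsc70 less that of siSCR, a scale that understates the change of low genes, and a gene was called at least 2-fold higher or lower when this difference reached 1. For the deposited TPM and FPKM the difference was made the same way, with 1 added to each value. Where such a value is lower than the CPM of the gene, adding 1 shrinks the difference more. A fold of 1 gene is its ratio of normalised counts, followed by a 95% exact (Clopper-Pearson) interval. Such an interval covers counting error only, and the spread between cultures is unknown.

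By this rule 3 of the 43 measured members were at least 2-fold higher in siHsc70 (Timp1, Mmp14 and Mmp23) and 3 were lower by that much (Adam11, Mmp16 and Adamts20). Each count is 6.98% of the members. Over all measured genes the rule called 2.29% higher and 5.14% lower, 7.43% in all. The members' median difference was -0.056, against -0.0034 for all measured genes. With the deposited FPKM the members split into 2 higher and 1 lower, and with the deposited TPM into 2 and 2. Of the 43 members, 21 lay above 0 and 22 below, where 49.7% of all measured genes lay above 0. None of the 43 changed sign with DESeq2, upper-quartile or total-count scaling or with the deposited TPM or FPKM. The counting interval excluded a ratio of 1 for 37 of them, 19 higher and 18 lower. The same count was not made over all measured genes, so it does not set the members apart from other genes.

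**Figure D1:**
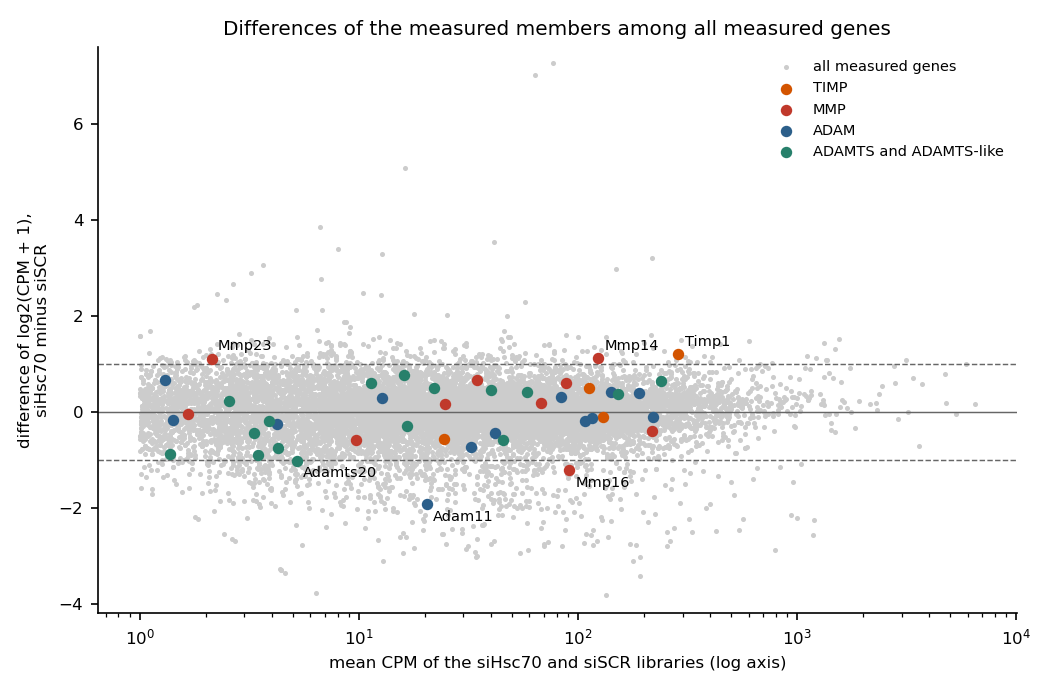
The difference of log2(CPM + 1), siHsc70 minus siSCR, against the mean CPM on a log axis. Grey points are all measured genes, coloured points the 43 measured members by family, and dashed lines mark 2-fold. Timp1, Mmp14 and Mmp23 lie above the upper line and Adam11, Mmp16 and Adamts20 below the lower one, while most members lie between the lines.

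The members were also read in bands of abundance, with no test between bands. Of the 13 members with a mean between 1 and 10 CPM, 3 were above 0 and the median was -0.26, and for 5 of the 13 the counting interval included 1. Of the 18 members between 10 and 100 CPM, 11 were above 0 and the median was 0.24. Of the 12 members at 100 CPM or more, 7 were above 0 and the median was 0.38. All measured genes in these bands had medians of 0.014, -0.018 and 0.022, and 51.2%, 48.2% and 52.5% of them lay above 0. With no minimum mean the median of all 60 members was 0.14, on the other side of 0 from that of the 43.

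Levels of different genes were compared as deposited TPM, which is scaled for transcript length. Timp1 was the most abundant member in both libraries, at 1076 TPM in siHsc70 and 514 TPM in siSCR, and held 43.3% of the summed member TPM in siHsc70 and 27.7% in siSCR. In siHsc70 the next were Timp2, Adam15, Mmp14 and Adamts1, and in siSCR they were Mmp15, Adam15, Timp2 and Adamts1. Mmp14 ranked 4 of 60 in siHsc70 and 9 of 60 in siSCR, whereas Mmp15 ranked 6 in siHsc70 and 2 in siSCR. The 60 members summed to 2487 TPM in siHsc70 and 1858 TPM in siSCR.

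**Figure D2:**
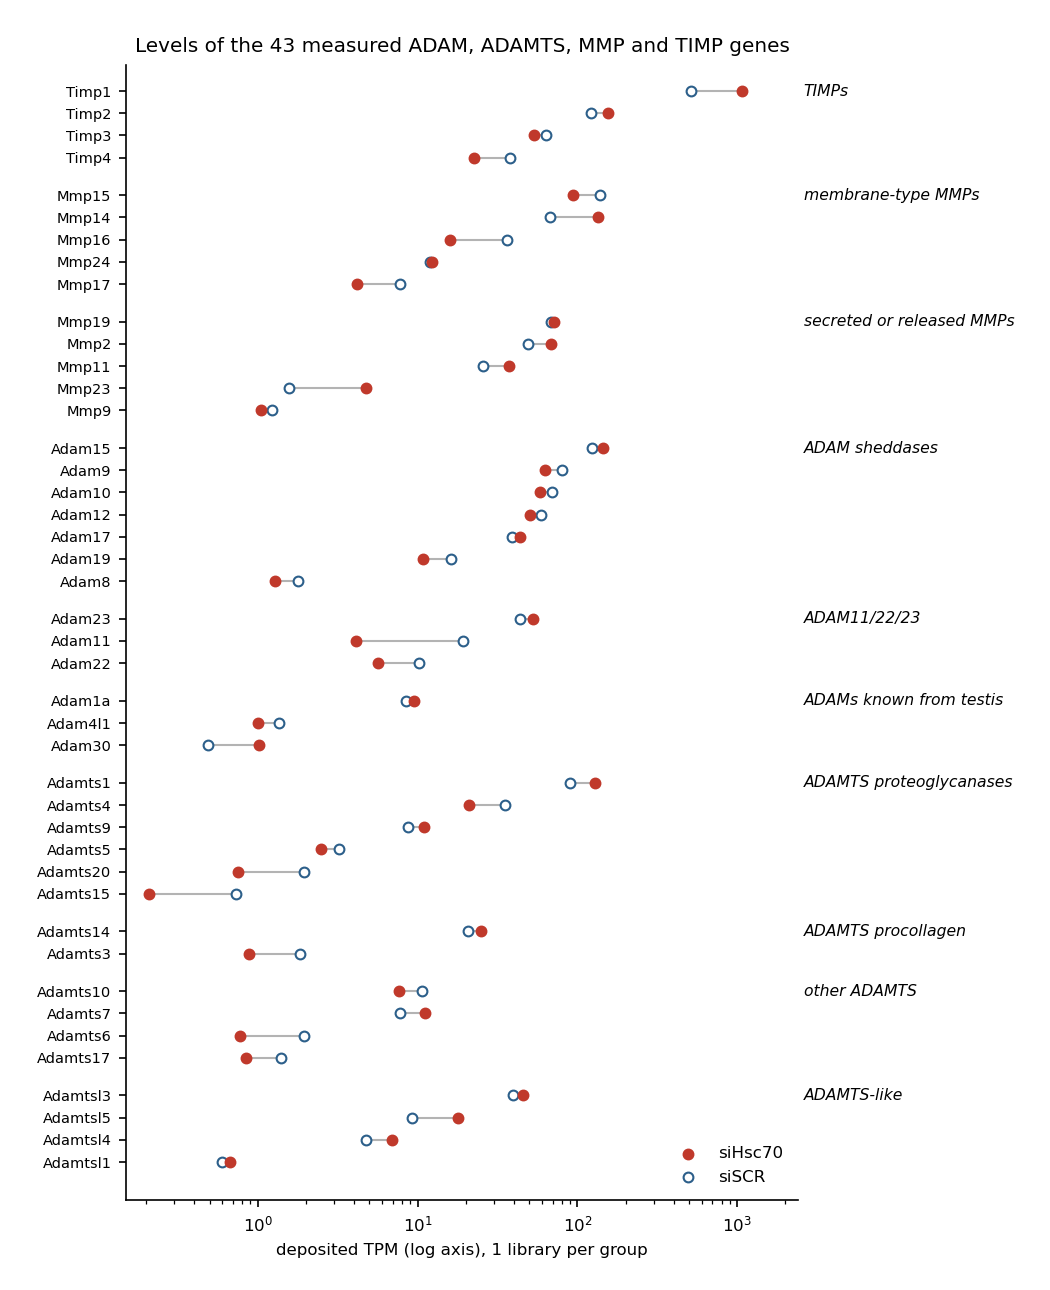
Deposited TPM on a log axis for the 43 measured members, grouped by role, with filled points for siHsc70 and open points for siSCR. Timp1 is furthest right in both libraries, at 1076 TPM in siHsc70 and 514 TPM in siSCR, and Adam11 has a wide gap, at 4.14 and 19.3 TPM.

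The inhibitors were described first. Timp1, a secreted inhibitor of most MMPs, was at 400.4 CPM in siHsc70 and 173 CPM in siSCR, 2.31-fold higher (2.22 to 2.41). Timp2, which blocks MMPs and also helps MMP14 to activate the MMP2 precursor, was at 132 CPM in siHsc70 and 92.8 CPM in siSCR, 1.42-fold higher (1.34 to 1.51). The other two lay on the opposite side. Timp3, a matrix-bound inhibitor that also blocks ADAM17 and ADAMTS enzymes, was at 124 CPM in siHsc70 and 135 CPM in siSCR, 1.09-fold lower (1.03 to 1.15). Timp4 was at 19.6 CPM in siHsc70 and 29.6 CPM in siSCR, 1.51-fold lower (1.32 to 1.73). The 4 genes thus differed in direction: Timp1 took 82.3% of the summed TIMP level in siHsc70 and 69.9% in siSCR, both as TPM. Within a library the ratio of Timp1 to Timp4 counts, which does not depend on scaling, was 20.5 in siHsc70 and 5.85 in siSCR, a 3.49-fold difference (3.03 to 4.03).

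On the RefSeq gene map of assembly GRCr8, Timp1, Timp3 and Timp4 each lie inside a synapsin gene. Timp1 lies inside Syn1, which was at 48.5 CPM in siHsc70 and 55.1 CPM in siSCR, so that host and inhibitor differed in direction. Syn3 and Syn2, the hosts of Timp3 and Timp4, were low: Syn3 was at 1.83 CPM in siHsc70 and 3.27 CPM in siSCR, and Syn2 at 2.17 CPM in siHsc70 and 1.97 CPM in siSCR. Whether the authors counted by strand is not given in the sources used here, and reads of overlapping genes could be shared.

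The Timp1 promoter is shown because Timp1 was the most abundant member and the highest above 0. It is the stretch from 250 bases to 1 base before the RefSeq start on GRCr8, chrX:3771123-3771372, minus strand, 5′ to 3′. Capitals mark TGAGTAA, a variant AP-1 site known from this promoter in other mammals, 108 bases before the start. This motif was searched after the data were seen, and on either strand it occurs in 2.25% of 27457 promoter windows of that length.
Timp1: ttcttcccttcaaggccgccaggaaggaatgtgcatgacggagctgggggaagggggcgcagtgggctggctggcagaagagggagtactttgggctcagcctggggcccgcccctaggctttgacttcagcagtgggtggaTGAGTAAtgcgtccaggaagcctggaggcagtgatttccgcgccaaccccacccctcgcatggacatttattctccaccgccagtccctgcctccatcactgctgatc

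Membrane-type MMPs work at the cell surface, and their leading member was a different gene in each library. Mmp14, encoding MT1-MMP, a surface collagenase that activates the MMP2 precursor, was at 170.2 CPM in siHsc70 and 77.5 CPM in siSCR, 2.19-fold higher (2.06 to 2.34). With the deposited TPM its difference was 0.98, just short of the 2-fold rule, on a scale where all measured genes had a median of -0.13. Mmp15, encoding MT2-MMP, was at 187 CPM in siHsc70 and 249 CPM in siSCR, 1.33-fold lower (1.27 to 1.39). Mmp16, encoding MT3-MMP, was at 54.4 CPM in siHsc70 and 128 CPM in siSCR, 2.35-fold lower (2.18 to 2.53). With the deposited FPKM its difference was -0.98, from 8.32 FPKM in siHsc70 and 17.4 FPKM in siSCR before 1 was added. Per length, Mmp14 was 1.43 times as abundant as Mmp15 in siHsc70 and 0.49 times in siSCR, and the change in their count ratio was 2.91-fold (2.70 to 3.15). The ratio of Mmp14 to Mmp16 counts was 3.13 in siHsc70 and 0.607 in siSCR, a 5.15-fold difference (4.67 to 5.68). Mmp17, which is anchored by a lipid, was at 7.56 CPM in siHsc70 and 11.8 CPM in siSCR. Mmp24, encoding the MT5-MMP of neural tissue, was at 26.2 CPM in siHsc70 and 23.3 CPM in siSCR, 1.13-fold higher with an interval (0.988 to 1.29) that included 1. Summed over the 6 membrane-type genes the level was 262 TPM in both libraries. Without length scaling the sum was 446 CPM in siHsc70 and 489 CPM in siSCR.

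Of the secreted MMPs, 4 of 5 measured genes were above 0, where 49.7% of all measured genes were. Mmp2, the gelatinase that MMP14 activates, was at 107 CPM in siHsc70 and 70.4 CPM in siSCR, 1.52-fold higher (1.42 to 1.63). Mmp11, encoding stromelysin-3, was at 42.7 CPM in siHsc70 and 26.7 CPM in siSCR, 1.599-fold higher (1.43 to 1.79). Mmp11 overlaps Chchd10 on the gene map, and the estimated counts of Chchd10 were 280.5 in siHsc70 and 11 in siSCR, so reads at this locus may be shared. Mmp19 was at 72.3 CPM in siHsc70 and 63.2 CPM in siSCR, 1.14-fold higher (1.06 to 1.24). Mmp23, whose product is released from the membrane by cleavage, had few reads, at 3.28 CPM in siHsc70 and 0.987 CPM in siSCR. It was 3.32-fold higher (1.95 to 5.90), from 59 reads in siHsc70 and 19 in siSCR. With the deposited FPKM its difference was 0.99, from 2.47 FPKM in siHsc70 and 0.75 FPKM in siSCR before 1 was added. Mmp9, the other gelatinase, was at 1.61 CPM in siHsc70 and 1.72 CPM in siSCR, within counting error.

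**Figure D3:**
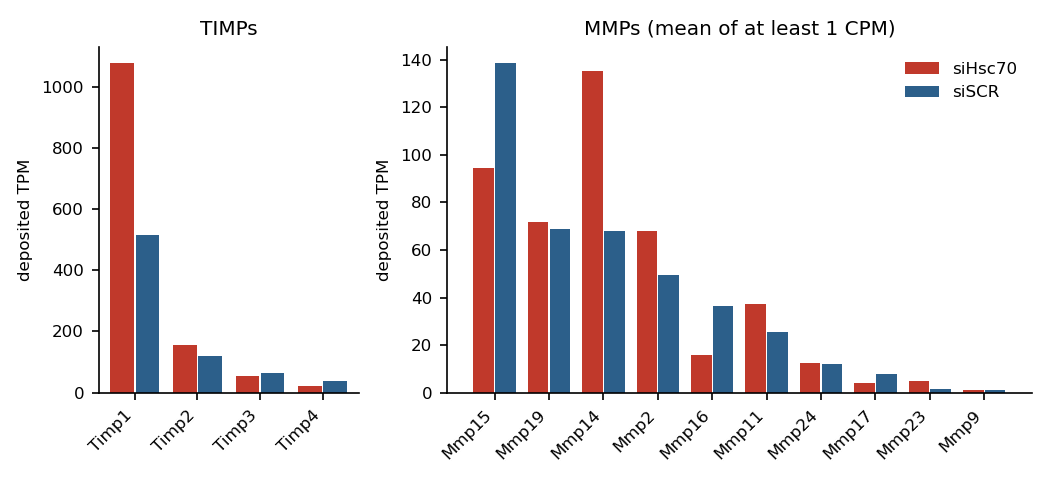
Deposited TPM of the 4 TIMP genes (left) and of the 10 measured MMP genes (right), with siHsc70 left of siSCR in each pair, 1 library each. Timp1 is at 1076 TPM in siHsc70 and 514 TPM in siSCR, and the tallest MMP bar is Mmp14 at 135 TPM in siHsc70 but Mmp15 at 138 TPM in siSCR.

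All TIMPs summed to 1307 TPM in siHsc70 and 736 TPM in siSCR, and all 17 MMPs to 448 TPM in siHsc70 and 409.6 TPM in siSCR. TIMP transcripts thus stood at 2.92 times the MMP transcripts in siHsc70 and 1.80 times in siSCR. Without Timp1 the TIMP sum was 232 TPM in siHsc70 and 222 TPM in siSCR.

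Mmp13, Mmp12, Mmp3 and Mmp10, a collagenase, the macrophage metalloelastase and both classical stromelysins, are close neighbours on chromosome 8 of the RefSeq map. Each was under 1 CPM on average, and they were singled out after their values were seen. Their estimated counts in siHsc70 were 5 for Mmp13, 12 for Mmp12, 7 for Mmp3 and 3 for Mmp10. In siSCR they were 0 for Mmp13, 2 for Mmp12, 2 for Mmp3 and 0 for Mmp10, so each gene had more reads in siHsc70. Taken singly, the counting interval included a ratio of 1 for Mmp13, Mmp3 and Mmp10 and excluded it for Mmp12 (1.43 to 59.1). Summed, the 4 genes had 27 reads in siHsc70 and 4 in siSCR, a ratio of 7.22 with a wide counting interval of 2.52 to 28.4. A count of 0 allows up to 3 reads, which is 0.167 CPM in siHsc70 and 0.156 CPM in siSCR.

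These 4 neighbouring genes were singled out after their values were seen, so comparing their promoters with all windows is not a test. Whether a promoter motif bears on the counts of these genes was not tested. The 4 promoters share a feature. Each holds the AP-1 motif TGANTCA once in the 250 bases before the start, 66 bases before it in Mmp13, 87 in Mmp12, 71 in Mmp3 and 61 in Mmp10. Over all promoter windows 6.36% hold this motif on either strand, as do 5 (11.1%) of the 45 members with a window in the promoter table used, the fifth being Adam19. The windows of Mmp14, Mmp16 and Adam11 were not searched. The stretches below, 5′ to 3′ on the plus strand of GRCr8 with the motif in capitals, lie at chr8:12782743-12782789 for Mmp13, chr8:12866545-12866591 for Mmp12, chr8:12925190-12925236 for Mmp3 and chr8:12974626-12974672 for Mmp10.
Mmp13: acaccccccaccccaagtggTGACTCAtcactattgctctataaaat
Mmp12: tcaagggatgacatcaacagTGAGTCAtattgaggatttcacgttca
Mmp3: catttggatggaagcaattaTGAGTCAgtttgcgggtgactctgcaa
Mmp10: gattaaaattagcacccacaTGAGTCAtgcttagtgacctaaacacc

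The match is a description of letters, and no factor binding was measured. A pair of other motifs was searched. The heat shock element, GAA, TTC and GAA or TTC, GAA and TTC with 2 bases between units, on either strand, was in 0 of the 45 member windows and in 0.597% of all windows. The SOX motif, ACAAAG or ACAATG on either strand, was in 6 of the 45 (13.3%) and in 24.8% of all windows.

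Transcripts of AP-1 and ETS factors, which act on MMP promoters, and of Bsg, a surface inducer of MMPs, formed a list of 12 measured genes. Its median difference was 0.22, and 1 gene passed the 2-fold rule in each direction. Fosl1, an AP-1 subunit, was at 218 CPM in siHsc70 and 102 CPM in siSCR. Fos, another AP-1 subunit, was at 12.6 CPM in siHsc70 and 40.8 CPM in siSCR.

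Fibroblast and mural cells express Timp1, Mmp14 and Mmp2, and most of their measured markers lay above 0. Of that list's 6 measured genes 5 were above 0 and 2 passed the rule upward, Col1a1 at 73.8 CPM in siHsc70 and 24.3 CPM in siSCR and Postn at 6.56 CPM in siHsc70 and 2.70 CPM in siSCR. The 10 markers summed to 120.4 CPM in siHsc70 and 53.8 CPM in siSCR. The others above 0 were short of the rule. Col1a2 was at 13.7 CPM in siHsc70 and 7.02 CPM in siSCR, and Pdgfrb at 10.6 CPM in siHsc70 and 6.39 CPM in siSCR. Tagln was at 12.96 CPM in siHsc70 and 10.4 CPM in siSCR. Col3a1, a collagen gene and the only measured marker below 0, was at 1.83 CPM in siHsc70 and 2.29 CPM in siSCR, within counting error. Dcn, a defining gene of fibroblasts, had 1 read in siHsc70 and 9 in siSCR, and Lum had 0 in siHsc70 and 2 in siSCR. Acta2 and Rgs5, also below 1 CPM, went the other way. Acta2 had an estimated count of 13.0 in siHsc70 and 2 in siSCR, and Rgs5 had 2 in siHsc70 and 1 in siSCR. Microglial markers, whose cells express Mmp12, summed to 10.4 CPM in siHsc70 and 6.44 CPM in siSCR. Nearly all of this came from the 2 measured genes. Tmem119 was at 5.50 CPM in siHsc70 and 3.38 CPM in siSCR, 1.63-fold higher (1.18 to 2.26). Cd68 was at 4.34 CPM in siHsc70 and 1.66 CPM in siSCR, 2.61-fold higher (1.71 to 4.07). The other genes found from this list were near the floor. P2ry12 had 5 reads in siHsc70 and 15 in siSCR, and Csf1r had 2 in siHsc70 and 8 in siSCR. Ptprc had 2 reads in siHsc70 and 4 in siSCR, and Aif1 had 1 in siHsc70 and 0 in siSCR. For each of these low genes the counting interval included 1. The part of these cells in the member differences was not tested. Nor was that of the oligodendrocyte lineage markers, whose median of -2.37 stood beside the lower Mmp16, Adam11 and Adamts20.

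The shedding ADAMs lay close to 0. Of 7 measured genes, 0 passed the 2-fold rule in either direction, the differences ran from -0.45 to 0.39 and the median was -0.13. Adam10, which sheds Notch and the amyloid precursor protein, was at 111 CPM in siHsc70 and 122 CPM in siSCR, 1.099-fold lower (1.03 to 1.17). Adam17, the TNF-alpha converting enzyme, was at 92.9 CPM in siHsc70 and 75.3 CPM in siSCR, 1.23-fold higher (1.15 to 1.32). Their count ratio, Adam17 over Adam10, was 0.838 in siHsc70 and 0.618 in siSCR. Adam15 was the most abundant ADAM in both libraries, at 146 TPM in siHsc70 and 123 TPM in siSCR. Its CPM was 215 in siHsc70 and 164 in siSCR, 1.31-fold higher (1.25 to 1.38). Adam9 was at 101 CPM in siHsc70 and 116 CPM in siSCR, 1.15-fold lower (1.08 to 1.22). Adam12 was at 212 CPM in siHsc70 and 228 CPM in siSCR, 1.07-fold lower (1.03 to 1.12). Adam19, which can process neuregulins, was furthest below 0, at 35.3 CPM in siHsc70 and 48.4 CPM in siSCR, 1.37-fold lower (1.24 to 1.52). Adam8 was at 3.78 CPM in siHsc70 and 4.73 CPM in siSCR, within counting error.

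Genes of proteins that the ADAMs act on or need were read from lists. Of 31 measured shed substrates (of 36 named), 7 passed the rule downward and 0 upward, but 18 lay above 0 and the median was 0.13. The highest above 0, Hbegf, encoding an EGF receptor ligand, came just short of the rule, at 194 CPM in siHsc70 and 97.0 CPM in siSCR. The 3 furthest below 0 were Ncam1, an adhesion molecule, Erbb4, a neuregulin receptor, and Tgfa, an EGF receptor ligand. Ncam1 was at 124 CPM in siHsc70 and 463 CPM in siSCR, Erbb4 at 0.723 CPM in siHsc70 and 5.25 CPM in siSCR, and Tgfa at 49.5 CPM in siHsc70 and 165 CPM in siSCR. Of 12 measured partners of ADAM10 and ADAM17, 0 passed the rule either way and the median was -0.075. The furthest from 0 was Rhbdf2, encoding iRhom2, which carries ADAM17 to the surface, at 36.4 CPM in siHsc70 and 20.9 CPM in siSCR. None of the 7 proprotein convertases, which remove the inhibitory propeptide of many of these enzymes, passed the rule (median -0.20). Pcsk4 came nearest, at 4.004 CPM in siHsc70 and 1.51 CPM in siSCR.

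ADAM11, ADAM22 and ADAM23 lack a working enzyme site and act as surface receptors for LGI proteins in the nervous system. Adam11 had the largest difference of all measured members, at 7.95 CPM in siHsc70 and 33.1 CPM in siSCR, 4.16-fold lower (3.46 to 5.02). Adam22 was at 24.2 CPM in siHsc70 and 40.8 CPM in siSCR, 1.68-fold lower (1.497 to 1.90). Adam23 went the other way, at 161 CPM in siHsc70 and 121 CPM in siSCR, 1.33-fold higher (1.26 to 1.40). The ratio of Adam23 to Adam11 counts was 20.3 in siHsc70 and 3.67 in siSCR, a 5.52-fold difference (4.56 to 6.72). Among their ligands, 3 of 4 LGI genes were measured, with a median of -0.87, and 1 gene passed the rule downward. That gene, Lgi2, was near the detection limit, at 0.334 CPM in siHsc70 and 1.87 CPM in siSCR. Neuronal markers also had a median below 0, at -0.37, and 3 of 10 passed the rule downward (Dcx, Elavl3 and Gap43). However, 4 of the 10 lay above 0, Snap25 furthest, at 20.1 CPM in siHsc70 and 10.03 CPM in siSCR. Their part in the Adam11 and Adam22 differences was not tested.

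The ADAMs known mainly from the testis were at the low end. Adam1a was at 14.1 CPM in siHsc70 and 11.4 CPM in siSCR, 1.24-fold higher (1.03 to 1.49). Adam30 was at 1.83 CPM in siHsc70 and 0.780 CPM in siSCR, and Adam4l1 at 1.28 CPM in siHsc70 and 1.56 CPM in siSCR. Adam32, Adam3a and Adam4 were not measured at 1 CPM. All 3 measured genes of this group had estimated counts that are not whole, as did 13 of the 60 members. On the gene map Adam4l1 lies inside Cox16, which had 437 reads in siHsc70 and 523 in siSCR. Which features these genes share reads with was not tested.

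ADAMTS enzymes that cut lecticans and other proteoglycans lay on both sides of 0. Adamts1, the most abundant ADAMTS, was at 292 CPM in siHsc70 and 186 CPM in siSCR, 1.57-fold higher (1.503 to 1.64). Adamts9 was at 46.6 CPM in siHsc70 and 33.5 CPM in siSCR, 1.39-fold higher (1.25 to 1.54). Adamts4, an aggrecanase made by oligodendrocytes in the mouse brain, was at 36.4 CPM in siHsc70 and 55.0 CPM in siSCR, 1.51-fold lower (1.37 to 1.67). The Adamts4 counts are not whole, so its reads may be shared. The ratio of Adamts1 to Adamts4 counts was 8.02 in siHsc70 and 3.38 in siSCR, a 2.37-fold difference (2.13 to 2.64). The 3 measured genes under 10 CPM had values below 0, where 51.2% of all genes between 1 and 10 CPM were above it. Adamts20 was at 3.11 CPM in siHsc70 and 7.33 CPM in siSCR, 2.35-fold lower (1.72 to 3.27). Its difference of -1.02 was short of the rule with upper-quartile scaling (-0.97), the deposited TPM (-0.75) and the deposited FPKM (-0.48). Adamts20 was at 0.39 FPKM in siHsc70 and 0.94 FPKM in siSCR, values so small that adding 1 shrinks the difference strongly. Adamts15 was at 0.667 CPM in siHsc70 and 2.08 CPM in siSCR, from 12 reads in siHsc70 and 40 in siSCR. Adamts5 was at 3.56 CPM in siHsc70 and 4.21 CPM in siSCR, within counting error.

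The lecticans are substrates of these enzymes. Of 7 measured lectican and link protein genes 3 passed the rule downward and 0 upward, while 4 lay above 0 and the median was 0.095. Ncan, encoding neurocan, was by far the most abundant by count, at 5067 CPM in siHsc70 and 4440 CPM in siSCR, 1.14-fold higher. The whole list thus summed to 5207 CPM in siHsc70 and 5125 CPM in siSCR. Vcan, encoding versican, was at 32.5 CPM in siHsc70 and 198 CPM in siSCR. Bcan, encoding brevican, was at 86.4 CPM in siHsc70 and 464 CPM in siSCR. Acan, encoding aggrecan, was at 1.45 CPM in siHsc70 and 6.44 CPM in siSCR. The differences of Vcan, Bcan and Acan were larger than that of any ADAMTS gene measured.

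The procollagen-processing and remaining ADAMTS genes gave values on both sides of 0. Adamts14, a procollagen N-propeptidase, was at 66.9 CPM in siHsc70 and 49.7 CPM in siSCR, 1.34-fold higher (1.23 to 1.47). Its relative Adamts3 was at 2.95 CPM in siHsc70 and 5.61 CPM in siSCR, and Adamts2 was below 1 CPM in both. Adamts7 was at 26.0 CPM in siHsc70 and 18.1 CPM in siSCR, 1.43-fold higher (1.25 to 1.65). Adamts10, which acts on fibrillin microfibrils, was at 14.8 CPM in siHsc70 and 18.3 CPM in siSCR, 1.24-fold lower (1.05 to 1.45). Adamts6 was at 2.11 CPM in siHsc70 and 4.83 CPM in siSCR, and Adamts17 at 2.67 CPM in siHsc70 and 4.002 CPM in siSCR. Of the astacin enzymes, which also process procollagen, 2 of 6 were measured and 0 passed the rule. The one further from 0, Tll1, was at 5.45 CPM in siHsc70 and 3.79 CPM in siSCR.

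ADAMTS-like proteins share the matrix-binding part of ADAMTS enzymes but have no protease domain. All 4 measured genes were above 0, where 49.7% of all measured genes were. Their median was 0.48, and 0 passed the 2-fold rule. Adamtsl3 was at 172 CPM in siHsc70 and 133 CPM in siSCR, 1.29-fold higher (1.22 to 1.36). Adamtsl4 was at 13.8 CPM in siHsc70 and 8.84 CPM in siSCR, 1.57-fold higher (1.28 to 1.92). Adamtsl5 was at 20.6 CPM in siHsc70 and 11.7 CPM in siSCR, 1.76-fold higher (1.49 to 2.09). Adamtsl1 was at 2.84 CPM in siHsc70 and 2.29 CPM in siSCR, within counting error.

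The deposited columns also carry the transcript length that the authors' quantification used, as the count per FPKM. Relative to the median gene, this length in siHsc70 over siSCR could be read for 31 members with at least 2 FPKM in both libraries, and 29 of them were within 10% of 1. The exceptions were Adamtsl5 at 0.824 and Mmp16 at 0.878. Over 11010 genes the middle 90% ran from 0.9714 to 1.025. Adamts7 at 0.905 and Mmp17 at 1.08 were within 10% of 1 but outside that range. So, by less, were Adamts10 at 1.033 and Adam22 at 0.9706. For these genes the fold therefore depends on the column, most for Adamtsl5 and Mmp16. Adamtsl5 was at 9.33 FPKM in siHsc70 and 4.45 FPKM in siSCR, and Mmp16 at 8.32 FPKM in siHsc70 and 17.4 FPKM in siSCR. Which transcripts of these genes were read was not tested.

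Other pericellular protease genes were set beside the members. In the plasminogen system, which activates several MMP precursors, 2 of 10 measured genes passed the rule upward and 1 downward, and the median was 0.82. Plaur, encoding the urokinase receptor, was at 6.06 CPM in siHsc70 and 1.61 CPM in siSCR. Serpini1, encoding neuroserpin, was at 2.17 CPM in siHsc70 and 5.87 CPM in siSCR. Of 9 measured genes of other protease inhibitors 0 passed the rule and the median was -0.11. Spock1, a testican gene, was furthest from 0, at 0.834 CPM in siHsc70 and 1.98 CPM in siSCR.

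**Figure D4:**
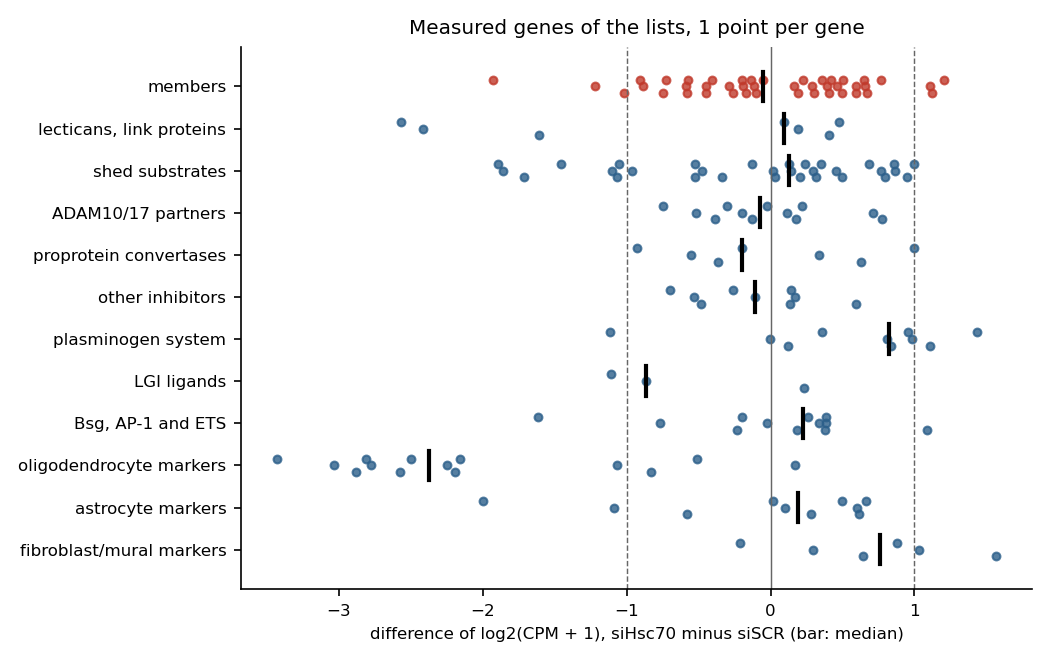
Differences of log2(CPM + 1), siHsc70 minus siSCR, for the measured genes of the members (red) and of the gene lists around them (blue), 1 point per gene, with a black bar at each median and dashed lines at 2-fold. The members lie on both sides of 0, the oligodendrocyte markers have a median of -2.37 and the plasminogen system has a median of 0.82.

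The remaining 17 members had a mean below 1 CPM. Besides the 4 neighbouring MMP genes and Adamts2 they were Adam32, Adam3a, Adam4, Adamts8, Adamts12, Adamts13, Adamts18, Adamts19, Adamtsl2, Mmp21, Mmp25 and Mmp28. Estimated counts of 3 or fewer in both libraries were found for Adam32, Adam3a, Adamts8, Mmp10, Mmp21 and Mmp25. No reads were counted for 2 members in siHsc70 (Adam3a and Mmp21) and for 3 in siSCR (Mmp10, Mmp13 and Mmp25). At this depth such genes could not be compared singly.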

How the data were processed

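The series has 1 table, whose 6 value columns were matched to the 2 samples by the siRNA they name. The deposited estimated counts, not all whole, come from the authors' quantification, per the file headers. The deposited FPKM and TPM are the authors' length-scaled values, per the file headers. No aligner, counter, annotation or strand setting is named there or in the labels (not given in the sources used here). A mouse build, mm39, stands in the submitters' processing notes, although the gene IDs are rat: all 60 member IDs and symbols matched rat RefSeq (GRCr8). Coordinates are printed only for RefSeq promoters.

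Counts were rounded and scaled with TMM factors of edgeR 4.0.16 (R 4.3.3), 0.992 for siHsc70 and 1.01 for siSCR. The minimum mean was 1 CPM and the pseudocount 1. Intervals used scipy 1.17.1, and those of ratios between genes are conditional exact intervals of an odds ratio. They and the floor of 3 counts cover counting error only, since PCR copies are not independent molecules. The procedure was tested on simulated counts. These held counting error only, with as many genes raised as lowered, so they do not bear on the spread between cultures.

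The members, gene lists and rules were chosen with earlier results of these data known. Every measured member is named. From each list up to 3 higher and 3 lower genes past the rule are named, or the furthest from 0. Some of these names are left out for the cell marker lists, and some genes are not reported here. The role group of testis ADAMs, the motif TGAGTAA, the gene pairs and the summed MMP locus were chosen after seeing the data. So was the naming of Ncan, Hbegf, Snap25, Col1a2, Pdgfrb, Tagln, Col3a1, Dcn, Lum, Acta2, Rgs5, Tmem119, P2ry12, Csf1r, Ptprc and Aif1. Protein sequences were not used here. The 9 alternatives changed the pseudocount, the minimum mean, the scaling (DESeq2 1.42.0 size factors among them), the unit and the size rule.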

Additional observations from a re-analysis of the deposited data

How the results depend on the processing

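No paired analysis was possible because each group has 1 library, and no replicate could be left out. Of the 9 alternatives, only those of scaling or unit could change the sign of a member, and under these no measured member changed sign. The number of members at least 2-fold lower, 3 in the main analysis, became 5 at a pseudocount of 0.1 and 1 in FPKM. Mmp16 and Adamts20 left that count in FPKM, where 1 was added to smaller values. Before that, Mmp16 was at 8.32 FPKM in siHsc70 and 17.4 FPKM in siSCR, and Adamts20 at 0.39 FPKM in siHsc70 and 0.94 FPKM in siSCR. A 1.5-fold rule called 9 members higher and 7 lower. The members' median of -0.056 was 0.24 with a minimum mean of 5 CPM, where 32 members were left, and 0.14 with no minimum mean. Over all genes the number at least 2-fold higher, 310 in the main analysis, became 518 at a pseudocount of 0.1, 189 in TPM and 202 in FPKM. Their median in TPM was -0.13. A 1.5-fold rule called 1304 genes higher and 1626 lower. Except for the alternatives that drop genes or change the pseudocount or the rule, the cause was not tested. With a pseudocount of 0.1, Adam30, Adamts15 and Adamts6 also passed the 2-fold rule. Depth limits the members under 1 CPM, where 3 reads are 0.167 CPM in siHsc70 and 0.156 CPM in siSCR.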

Other observations

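Outside the rule for members, 2 rows deposited under LOC names now carry ADAM symbols in RefSeq. Adam1b, a relative of Adam1a, had estimated counts of 64.6 in siHsc70 and 50.9 in siSCR, and Adam21 had 0.50 in siHsc70 and 1.5 in siSCR. Endothelial markers summed to 11.6 CPM in siHsc70 and 12.01 CPM in siSCR. Of the 4 measured, 2 lay above 0 and the median was 0.17. Kdr, a VEGF receptor gene, was at least 2-fold lower, at 0.278 CPM in siHsc70 and 2.29 CPM in siSCR. Among 10 astrocyte markers, Aqp4 and Gfap passed the 2-fold rule downward and 0 passed it upward, but 7 of the 10 lay above 0 and the median was 0.19. Aqp4 was at 20.6 CPM in siHsc70 and 85.0 CPM in siSCR, and Gfap was at 667 CPM in siHsc70 and 1416 CPM in siSCR.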
